A study of Homo sapiens with 6 samples.

Results

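The genes described are EGFR, ERBB2 and ERBB3, which encode 3 receptor tyrosine kinases of 1 family, AREG, EREG, HBEGF and TGFA, which encode 4 ligands of EGFR, and MET and AXL, which encode receptor tyrosine kinases of other families. They were taken by name from the deposited tables, and all 9 were found among 60409 rows, of which 18583 passed the filter on low counts, these 9 among them. The RNA came from ACHN cells, an established human renal cell adenocarcinoma line, 48 h after transfection. The control group, NC, was given a negative control siRNA. The groups siMEX3A_1 and siMEX3A_2 were given siRNAs of different design against the RNA-binding protein gene MEX3A. Each group had 2 libraries. All 3 groups are transfected cells of 1 line at 1 time, with no untransfected group among them, and nothing in the labels tells if replicate libraries are separate cultures. P-values therefore rest on a spread between libraries that may be technical.

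The EGFR family works through ligand-driven pairing of receptors. AREG, EREG, HBEGF and TGFA are made as membrane-bound precursors, are cut loose by metalloproteases of the ADAM family and bind EGFR, while HBEGF and EREG also bind ERBB4. ERBB2 has no known ligand of its own and acts as a partner, and ERBB3, which binds neuregulins, has little kinase activity and signals through its partners to PI3 kinase. MET is the receptor of hepatocyte growth factor (HGF), and AXL that of GAS6. EGFR and MET are widely expressed in the tubular epithelium from which renal carcinomas arise, and TGFA is a known target of hypoxia-inducible factors in clear cell renal carcinoma.

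Library totals were even, between 18825750 and 19158723 expected counts. The 9 genes held between 0.182% and 0.354% of a library. MEX3A itself was low, at 94.0 and 109 expected counts in NC, at 56.0 and 64.0 with siMEX3A_1, and at 73.0 and 76.5 with siMEX3A_2. Its level fell with siMEX3A_1 by 0.71 on the log2 scale (SE 0.17, edgeR adjusted p = 0.00655), and the change with siMEX3A_2 was -0.42 (SE 0.17, adjusted p = 0.0644) and did not pass. All 6 markers of renal epithelium that were looked up were detected, and their summed normalized counts lay between 34911 and 36217 in NC, between 46740 and 49851 with siMEX3A_1 and between 31554 and 33171 with siMEX3A_2. KRT8 made up most of the higher sum with siMEX3A_1, with means of 11367 in NC and 26744, while the means of PAX8 were 15671 and 12179. Of 6 markers of other cell types, 5 had a row. Among these PTPRC, of leukocytes, and VWF, of endothelium, were at 0 to 6.83 normalized counts in every library, whereas CD68, COL1A1 and ACTA2 were expressed. The summed level of the 5 was 2021 to 2208 in NC, 2459 to 2630 with siMEX3A_1 and 3047 to 3189 with siMEX3A_2. Its members differed in direction: ACTA2 had means of 602, 1260.2 and 1417, CD68 307, 597 and 589, and COL1A1 1199.9, 685 and 1109.9 in these groups. The part of these shifts in the results below was not tested. In bulk RNA, fewer cells of a kind and less RNA per cell cannot be told apart.

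With siMEX3A_1 the ligands AREG, EREG and TGFA and the receptor AXL rose, and ERBB3 fell. With siMEX3A_2 all 4 ligands rose, and EGFR, ERBB2, ERBB3 and AXL fell. A gene was called at an adjusted p under 0.05 in edgeR's quasi-likelihood test. By that rule 5 of the 9 genes were called with siMEX3A_1, 4 higher and 1 lower, where 52.9% of all genes tested were called, 27% higher and 25.9% lower. With siMEX3A_2, 8 of 9 were called, 4 higher and 4 lower, where 50.9% of all genes tested were called, 25.2% higher and 25.7% lower. Under a filter that kept only genes with a mean of at least 50 counts, as these 9 have, 68.1% and 65.7% were called. The share of the 9 called with siMEX3A_1 was thus near that of all genes and not above that of well-expressed genes. Both comparisons share the NC libraries, so their values are given side by side and not as independent evidence of each other.

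**Figure D1:**
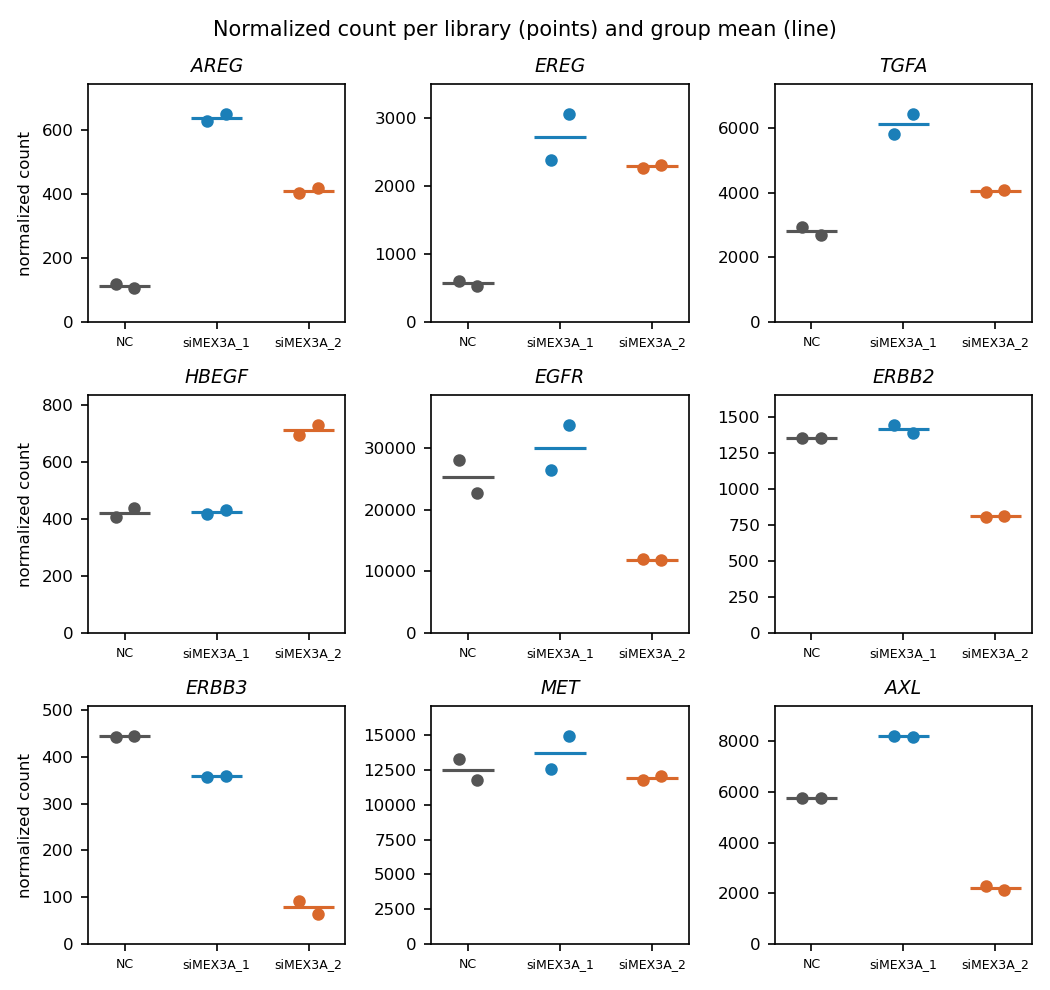
Normalized count (vertical axis, from 0) of each of the 9 genes in the 2 libraries of NC, siMEX3A_1 and siMEX3A_2. Points are libraries and lines are group means. AREG, EREG and TGFA are higher in all 4 siRNA libraries than in both NC libraries, AXL lies above NC with siMEX3A_1 and below it with siMEX3A_2, and the 3 groups of MET lie close together.

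AREG encodes amphiregulin, and with siMEX3A_1 its change was the largest of the 4 ligands. Its normalized count, which is the count scaled to the mean library by TMM-adjusted library sizes, was 120.1 and 105 in NC. It was 629 and 649.9 with siMEX3A_1 and 403 and 419 with siMEX3A_2. The 3 groups did not overlap, and siMEX3A_1 was highest. The level rose 5.67-fold with siMEX3A_1, a log2 fold change of 2.50 (SE 0.09, edgeR adjusted p = 3.78e-08), and 3.64-fold with siMEX3A_2, a log2 fold change of 1.87 (SE 0.10, adjusted p = 6.00e-07). The direct comparison of the siRNAs put siMEX3A_1 above siMEX3A_2 by 0.64 (SE 0.08, adjusted p = 8.35e-05). AREGB, a near-identical copy of AREG in the older assembly to which reads could also be assigned, had at most 2.38 expected counts in any library.

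EREG, which encodes epiregulin, lies beside AREG on chromosome 4. It was at 606 and 536 normalized counts in NC, 2381 and 3063 with siMEX3A_1, and 2276 and 2310.2 with siMEX3A_2. All siRNA libraries were far above both NC libraries, and the siMEX3A_1 libraries differed from each other more than those of siMEX3A_2. EREG rose 4.77-fold with siMEX3A_1 (log2 fold change 2.25, SE 0.12, adjusted p = 2.81e-07) and 4.02-fold with siMEX3A_2 (2.01, SE 0.12, adjusted p = 1.16e-06). The difference between the siRNAs was 0.25 (95% interval 0.01 to 0.49, adjusted p = 0.0806) and did not pass. Without siMEX3A_1 replicate 1 it was 0.43 (adjusted p = 0.00120) and passed.

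AREG and EREG are consecutive protein-coding genes in the RefSeq annotation, with EPGN, which encodes epigen, on the far side of EREG and BTC, which encodes betacellulin, on the far side of AREG. EPGN had 0 expected counts in both NC libraries and at most 2 in the others, too few for a test. BTC was at 149 and 174 normalized counts in NC, 241 and 265 with siMEX3A_1, and 268 and 303 with siMEX3A_2. It rose by 0.65 (SE 0.12, adjusted p = 0.00143) and by 0.82 (SE 0.12, adjusted p = 3.30e-04) on the log2 scale. The 3 expressed genes of this stretch were therefore higher with each siRNA. The fold changes of AREG and EREG were larger than those of BTC, a difference between genes that was not tested.

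The start regions of the ligand genes that rose with each siRNA are shown to compare their core promoter letters. Each window runs from 250 bases before to 50 bases after a gene's start, from RefSeq on GRCh38.p14, a later build than the one named for the counts. Windows were matched for 8 of the 9 genes, 11 windows in all. ERBB3 was not matched. The letters shown in capitals were searched on both strands and were chosen after the sequences had been seen. They were TATAAA for the core promoter box of that name, TGACGTCA for the cAMP response element, which reads the same on both strands, and TGANTCA for the AP-1 site. No capital match overlaps another in the windows shown. The AREG window is chr4:74444886-74445185, plus strand, the EREG window chr4:74364895-74365194, plus strand, and the TGFA window chr2:70553777-70554076, minus strand.
AREG: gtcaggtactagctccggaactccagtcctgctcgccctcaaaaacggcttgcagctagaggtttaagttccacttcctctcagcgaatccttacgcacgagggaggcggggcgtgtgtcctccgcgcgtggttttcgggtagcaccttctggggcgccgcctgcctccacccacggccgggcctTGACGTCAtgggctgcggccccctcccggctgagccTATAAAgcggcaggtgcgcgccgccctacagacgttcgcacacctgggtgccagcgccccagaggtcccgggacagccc
EREG: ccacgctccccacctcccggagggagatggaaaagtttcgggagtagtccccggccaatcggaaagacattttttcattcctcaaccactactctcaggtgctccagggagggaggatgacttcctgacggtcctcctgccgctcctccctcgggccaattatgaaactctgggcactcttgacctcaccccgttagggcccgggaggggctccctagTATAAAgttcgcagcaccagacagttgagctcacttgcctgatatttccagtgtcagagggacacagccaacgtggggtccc
TGFA: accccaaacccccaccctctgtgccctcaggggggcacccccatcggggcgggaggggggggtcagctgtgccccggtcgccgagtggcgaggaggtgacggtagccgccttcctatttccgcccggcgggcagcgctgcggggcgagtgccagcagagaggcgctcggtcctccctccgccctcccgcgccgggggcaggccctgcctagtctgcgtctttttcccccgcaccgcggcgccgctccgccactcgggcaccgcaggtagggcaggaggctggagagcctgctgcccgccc

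TATAAA began 29 bases before the start in AREG and 32 bases before it in EREG. AREG also held TGACGTCA, which began 65 bases before the start. The TGFA window shown, with 75.3% G and C, held none of the 3, and neither did the gene's other window. TGANTCA was in none of the windows shown. Among windows not shown, that of ERBB2 held TGANTCA 1 time, and 1 EGFR window held TGANTCA 2 times and TATAAA 2 times. Of all 35116 windows, 11.5% held the TATA box letters on either strand, 1.85% those of the cAMP response element and 7.71% those of the AP-1 site. The GC box, CCAAT box and TEAD core motifs were searched in the same way as GGGCGG, then CCAAT, then GGAATG, and were held by 45%, 34.6% and 14% of all windows. Of the windows shown, AREG held 1 GC box, EREG 2 CCAAT boxes and 1 TEAD core, and TGFA 4 GC boxes. These matches are descriptions of the letters in the windows and not evidence of a factor's binding.

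TGFA, on chromosome 2, encodes transforming growth factor alpha. Its normalized count was 2932 and 2693 in NC, 5830.5 and 6428 with siMEX3A_1, and 4027 and 4088 with siMEX3A_2. The groups did not overlap, and siMEX3A_2 lay between NC and siMEX3A_1. TGFA rose 2.18-fold with siMEX3A_1 (log2 fold change 1.12, SE 0.07, adjusted p = 5.70e-07) and 1.44-fold with siMEX3A_2 (0.53, SE 0.07, adjusted p = 1.11e-04). The siRNAs differed by 0.60 (SE 0.06, adjusted p = 3.99e-05). TGFA-IT1, a transcript inside the gene on the same strand, had at most 4 expected counts.

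HBEGF, on chromosome 5, encodes heparin-binding EGF-like growth factor, which is anchored at the cell surface until it is shed. It was at 406 and 439 normalized counts in NC, 418 and 433 with siMEX3A_1, and 695 and 730.0 with siMEX3A_2. The siMEX3A_1 libraries lay within the range of NC (log2 fold change 0.01, 95% interval -0.16 to 0.18, adjusted p = 0.936). With siMEX3A_2 the gene rose 1.69-fold (0.75, SE 0.07, adjusted p = 2.17e-05). It was the one ligand lower with siMEX3A_1 than with siMEX3A_2, by a log2 difference of -0.75 (SE 0.07, adjusted p = 1.92e-05).

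EGFR, on chromosome 7, encodes the receptor of the 4 ligands. Its normalized count was 28029 and 22634 in NC, 26326 and 33668 with siMEX3A_1, and 11938 and 11823 with siMEX3A_2. The siMEX3A_1 libraries overlapped those of NC, while both siMEX3A_2 libraries were far below all others. With siMEX3A_2 EGFR fell by 1.09 on the log2 scale (SE 0.12, adjusted p = 4.28e-05), so that the NC mean was 2.13-fold higher. The siMEX3A_1 change was 0.24 (95% interval -0.01 to 0.50, adjusted p = 0.103) and did not pass. Without NC replicate 1 it was 0.42 (adjusted p = 0.0258) and without siMEX3A_1 replicate 1 it was 0.42 (adjusted p = 0.00315), and both passed. By rank of expected count among all rows, EGFR stood between 35 and 57 in the NC and siMEX3A_1 libraries and at 131 in both siMEX3A_2 libraries. The direct comparison gave a log2 difference of 1.34 (SE 0.12, adjusted p = 9.47e-06). The antisense gene EGFR-AS1 had 9.74 to 29.9 expected counts, and whether the counting used strand is not given in the sources.

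The libraries of a group differed with gene length, and EGFR was among the genes that differed between them. In NC the log2 ratio of replicate 1 to replicate 2 over 10643 protein-coding genes had a median of -0.05 in the shortest class of exon length and 0.12 in the longest, and in siMEX3A_1 it ran the other way, from 0.05 to -0.16. In siMEX3A_2 the medians stayed between 0.01 and -0.02. For EGFR, with 11333 bases of exon in GENCODE v29, this ratio was 0.31 in NC, -0.35 for siMEX3A_1 and 0.01 for siMEX3A_2. The medians of its own length class were 0.10, -0.12 and -0.01. MET had 0.18, -0.25 and -0.04. EREG had 0.18, -0.36 and -0.02, and AXL, of the same length class as EREG, had 0.00, 0.003 and 0.09, where the class medians were 0.04, -0.03 and -0.002. The part of length in the spread of single genes was not tested. In an alternative chosen after seeing the data, which removed each library's trend with exon length, the siMEX3A_2 change of EGFR was -1.22 (adjusted p = 6.00e-07) and its siMEX3A_1 change 0.19 (adjusted p = 0.0527). The siRNA difference of EREG then passed at 0.30 (adjusted p = 0.0203).

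**Figure D2:**
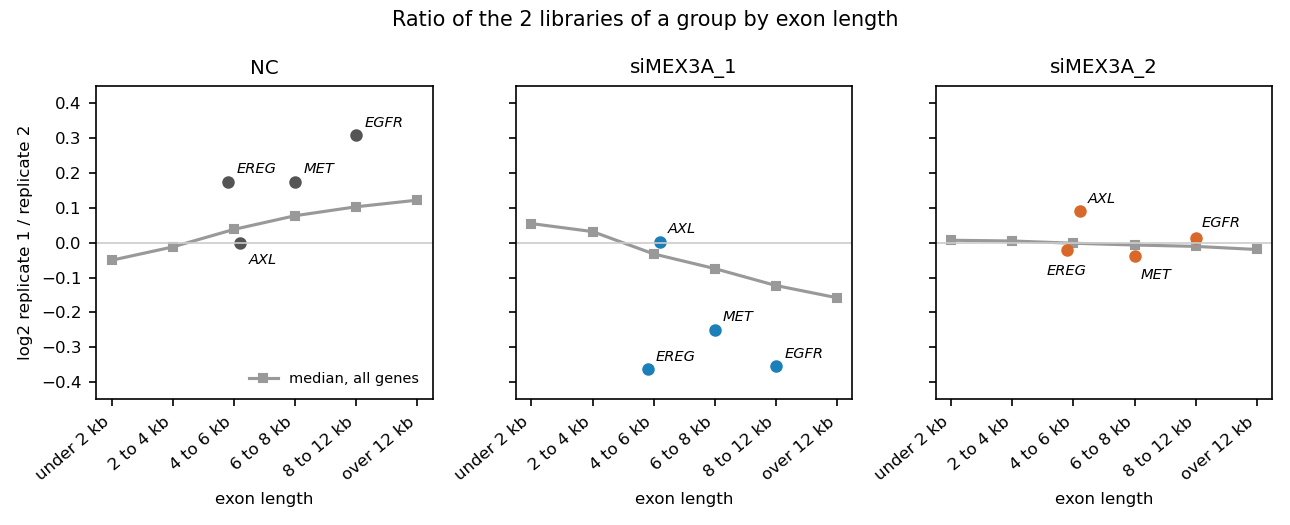
Log2 ratio of the normalized counts of replicate 1 to replicate 2 (vertical axis) by class of exon length (horizontal axis) in each group. Squares are medians over 10643 protein-coding genes and coloured points are EGFR, MET, EREG and AXL. The medians rise with length in NC, fall in siMEX3A_1 and stay near 0 in siMEX3A_2, and EGFR lies at 0.31, -0.35 and 0.01.

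ERBB2, on chromosome 17, encodes the ligandless partner receptor. It was at 1355 normalized counts in each NC library, 1445 and 1393 with siMEX3A_1, and 809 and 813 with siMEX3A_2. The libraries of a group lay close together, and only siMEX3A_2 was below NC. ERBB2 fell with siMEX3A_2 by 0.74 on the log2 scale (SE 0.06, adjusted p = 8.82e-06). With siMEX3A_1 the change was 0.07 (95% interval -0.07 to 0.20, adjusted p = 0.385). The siRNAs differed by 0.81 (SE 0.06, adjusted p = 3.78e-06). ERBB2 overlaps PGAP3 and MIEN1 on the opposite strand, so reads of these genes cannot be told apart where the counting did not use strand.

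ERBB3, on chromosome 12, encodes the neuregulin receptor. Its normalized count was 444 and 445 in NC, 357 and 360.1 with siMEX3A_1, and 92.0 and 65.1 with siMEX3A_2. It was the receptor with the largest fall of the 9 genes: with siMEX3A_2 it fell by 2.50 on the log2 scale (SE 0.13, adjusted p = 6.78e-07), and the NC mean was 5.65-fold higher. With siMEX3A_1 it fell by 0.31 (SE 0.11, adjusted p = 0.0340), but this call ended in DESeq2 (adjusted p = 0.219), with no filter on low counts (adjusted p = 0.0823) and without either library of NC or of siMEX3A_1 (adjusted p from 0.0791 to 0.120). In the authors' deposited table its adjusted p was 0.165. The siRNAs differed by 2.19 (SE 0.13, adjusted p = 9.64e-07). A protein-coding gene named only by its clone overlaps ERBB3 on the same strand.

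MET, on chromosome 7, encodes the HGF receptor. It was at 13280.2 and 11759 normalized counts in NC, 12562 and 14934 with siMEX3A_1, and 11784 and 12097 with siMEX3A_2. The groups overlapped NC in both comparisons. MET passed in neither, with a log2 change of 0.14 (95% interval -0.05 to 0.32, adjusted p = 0.195) with siMEX3A_1 and -0.07 (95% interval -0.25 to 0.11, adjusted p = 0.522) with siMEX3A_2. Without siMEX3A_1 replicate 1 the siMEX3A_1 change was 0.26 (adjusted p = 0.00770) and passed. The siRNAs differed by 0.20 (adjusted p = 0.0611), which passed in DESeq2 at 0.22 (adjusted p = 0.0293), without siMEX3A_1 replicate 1 at 0.33 (adjusted p = 0.00208), and with the trend with exon length removed at 0.27 (adjusted p = 0.00248).

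AXL, on chromosome 19, encodes the GAS6 receptor, and it was called in opposite directions with the siRNAs. Its normalized count was 5758 in each NC library, 8199 and 8180.2 with siMEX3A_1, and 2274 and 2136 with siMEX3A_2. Libraries of a group differed little, and the 3 groups lay far apart. AXL rose 1.42-fold with siMEX3A_1 (log2 fold change 0.51, SE 0.05, adjusted p = 1.81e-05) and fell by 1.38 on the log2 scale with siMEX3A_2 (SE 0.05, adjusted p = 1.03e-07). The direct comparison gave a difference of 1.89 (SE 0.05, adjusted p = 1.63e-08), and siMEX3A_1 was 3.71-fold above siMEX3A_2.

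**Figure D3:**
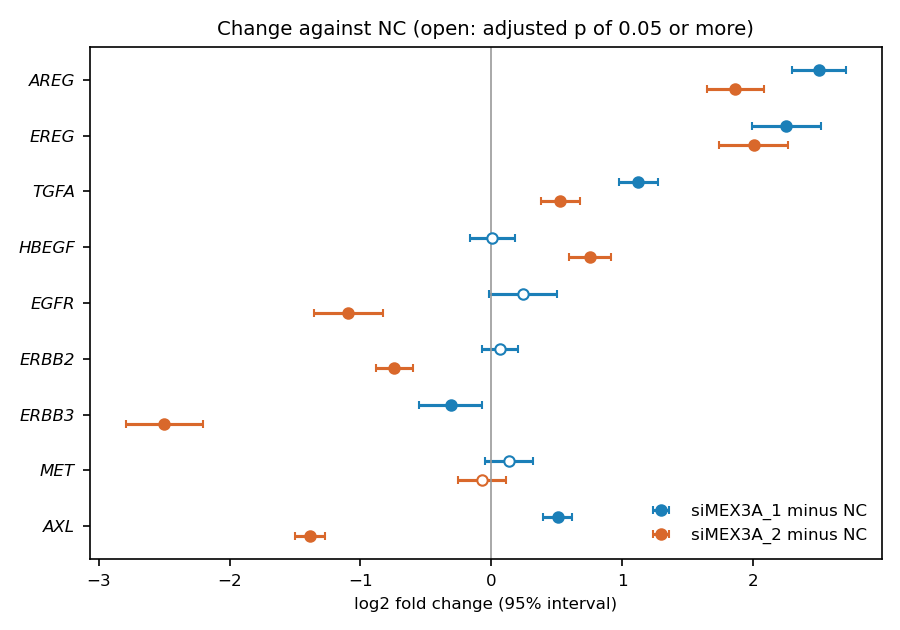
Log2 fold change against NC (horizontal axis) of the 9 genes with siMEX3A_1 and siMEX3A_2. Points are edgeR estimates with 95% intervals, and open points did not pass at an adjusted p under 0.05. The 4 ligands lie at or above 0 with each siRNA, and the 3 EGFR family receptors and AXL lie below 0 with siMEX3A_2, from -0.74 to -2.50.

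In the direct comparison of the siRNAs, 7 of the 9 genes were called, 6 higher with siMEX3A_1 and 1 lower, where 51.6% of all genes tested were called, 26% higher and 25.5% lower. Of genes with a mean of at least 50 counts, 67.7% were called. The 3 EGFR family receptors and AXL were higher with siMEX3A_1, by 0.81 to 2.19 on the log2 scale, as were AREG and TGFA, while HBEGF was lower. Over the 6 libraries the log2 levels of ERBB2 and HBEGF had a Pearson r of -0.99, those of EGFR and AXL 0.97, those of AREG and EREG 0.98 and those of AREG and EGFR -0.09. These libraries fall into 3 groups that each share a treatment, so the coefficients describe the group pattern and carry no test.

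To compare levels between genes, CPM values (counts scaled to a common library total) were divided by the exon length in kilobases. In NC the order from the highest was EGFR at 118 ± 17.8, MET at 98.8 ± 8.49, AXL at 62.1, TGFA at 30.9 ± 1.86, ERBB2 at 12.6, HBEGF at 9.35 ± 0.512, EREG at 6.53 ± 0.560, AREG at 4.80 ± 0.446 and ERBB3 at 3.16 CPM per kb (SD, n = 2 libraries). The SD ranges of EGFR and MET overlapped, and those of the other neighbours in the order did not. These SDs describe the 2 libraries of a gene, and differences in level between genes were not tested. With siMEX3A_1 the level per length of EREG was 31.1 ± 5.51 and that of AREG 27.2 ± 0.630, both above ERBB2 at 13.2 ± 0.345 and within the SD of EREG of each other. EGFR at 139.7 ± 24.2 and MET at 108 ± 13.2 again overlapped. With siMEX3A_2 MET stood first at 94.2 ± 1.74, before EGFR at 55.3 ± 0.379, and EREG at 26.2 ± 0.279 stood above AXL at 23.8 ± 1.05. ERBB3 was last in each group, at 0.558 ± 0.135 with siMEX3A_2. The order was the same when the longest transcript replaced the exon length.

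**Figure D4:**
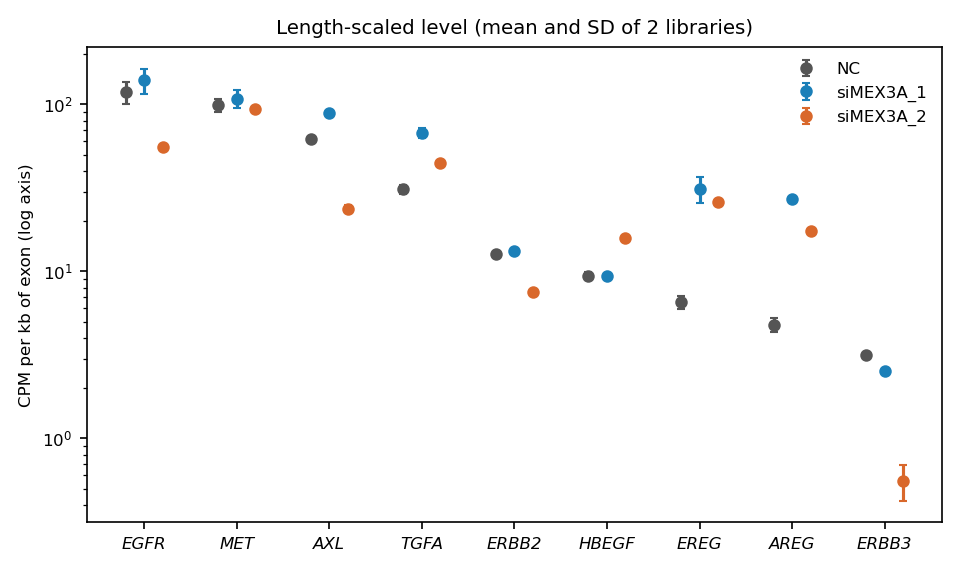
CPM per kb of exon (vertical log axis) of the 9 genes, ordered by their NC level, in NC, siMEX3A_1 and siMEX3A_2. Points are means and bars the SD of 2 libraries. EGFR leads in NC and siMEX3A_1 and MET in siMEX3A_2, and EREG and AREG move from below ERBB2 and HBEGF in NC to above both with each siRNA.

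The genes around these receptors were taken from 7 lists of 83 genes, 76 of them tested. With siMEX3A_1, 37 were higher and 14 lower, with a median log2 fold change of 0.17, where the median of all genes tested was -0.01. With siMEX3A_2, 39 were higher and 19 lower, with a median of 0.27 and a median over all genes of -0.002. The called share was 67.1% and 76.3%, where it was 52.9% and 50.9% of all genes tested and, under a filter that kept only genes with a mean of at least 50 counts, 68.1% and 65.7%. The share with siMEX3A_1 was thus near that of well-expressed genes, and the counts of single lists that follow are read against the same shares. Among the other EGF family ligands, 2 of 5 tested rose and 0 fell in each comparison: BTC, as above, and NRG1, a ligand of ERBB3, by 1.02 (SE 0.07, adjusted p = 1.58e-06) and 0.67 (SE 0.07, adjusted p = 3.43e-05). EGF itself, NRG2 and NRG4 did not pass, and EPGN and NRG3 were below the filter.

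Of 10 genes for the shedding of ligands, 5 rose with each siRNA, 2 fell with siMEX3A_1, ADAM19 and, named after its values were seen, FRMD8, and 3 fell with siMEX3A_2. The metalloprotease gene ADAM12 rose by 2.39 (SE 0.13, adjusted p = 4.07e-07) and 1.71 (SE 0.14, adjusted p = 7.43e-06). RHBDF1 and RHBDF2 encode iRhom proteins, which carry ADAM17 to the cell surface. They rose by 1.05 and 0.64 with siMEX3A_1 and by 0.31 and 0.37 with siMEX3A_2. ADAM17 itself, named after its values were seen, rose by 0.46 (adjusted p = 2.89e-04) and 0.33 (adjusted p = 0.00234). ADAM15 rose by 1.11 and 0.34. ADAM9, ADAM10 and ADAM19, which encode related proteases, fell with siMEX3A_2 by 0.96, 0.47 and 0.86, whereas with siMEX3A_1 the values were 0.12, 0.05 and -0.38, of which that of ADAM19 passed.

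Among relatives and ligands of MET and AXL, 2 of 7 tested genes rose and 3 fell in each comparison. GAS6, which encodes the ligand of AXL, was at 2277 and 2413 normalized counts in NC, 6344 and 5955 with siMEX3A_1, and 3243 and 3075 with siMEX3A_2. It rose by 1.39 (SE 0.06, adjusted p = 9.10e-08) and by 0.43 (SE 0.06, adjusted p = 2.49e-04). PROS1, which encodes protein S, a ligand of the AXL relatives TYRO3 and MERTK, rose by 0.68 and by 1.12. MERTK fell by 1.27 and by 0.91, and TYRO3 by 0.54 and by 0.45. The remaining gene that fell, named after its values were seen, was with siMEX3A_1 HGF, the ligand gene of MET. It had 60.6 and 41.0 normalized counts in NC, 17.2 and 11.2 with siMEX3A_1, and 37.0 and 44.1 with siMEX3A_2. Its log2 changes were -1.83 (SE 0.34, adjusted p = 0.00124) and -0.32 (SE 0.29, adjusted p = 0.392). With siMEX3A_2 it was MST1R, which encodes a relative of MET, at -0.70 (SE 0.24, adjusted p = 0.0346). For the AXL branch, both ligand genes were thus higher and both AXL relatives lower with each siRNA, while AXL itself went up with siMEX3A_1 and down with siMEX3A_2.

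Of the genes that act on the HGF precursor, PLAU rose by 0.44 and 0.65 and SPINT1, which encodes an inhibitor of HGF-activating proteases, fell by 1.29 (SE 0.13, adjusted p = 2.93e-05) and fell by 2.87 (SE 0.16, adjusted p = 8.60e-07). SPINT2 did not pass, and HGFAC, HPN and ST14 were below the filter. Of 13 tested negative regulators of these receptors, 5 rose and 3 fell with siMEX3A_1, and 5 rose and 4 fell with siMEX3A_2. ERRFI1, which encodes an inhibitor of the EGFR kinase, was at 962 and 875 normalized counts in NC, 2607 and 2952 with siMEX3A_1, and 2362 and 2389 with siMEX3A_2, and rose by 1.60 (SE 0.08, adjusted p = 2.00e-07) and 1.37 (SE 0.08, adjusted p = 1.04e-06). The ubiquitin ligase gene CBLB rose by 1.37 and 1.17. Its relative CBL, named after its values were seen, fell by 0.49 with siMEX3A_1 (adjusted p = 0.00107) and rose by 0.59 with siMEX3A_2 (adjusted p = 3.13e-04). LRIG1, which encodes a membrane protein that promotes receptor degradation, fell by 2.45 (SE 0.14, adjusted p = 4.94e-07) and 0.98 (SE 0.12, adjusted p = 1.09e-04). The phosphatase gene PTPN1 rose by 0.63 with siMEX3A_1 and fell by 1.10 with siMEX3A_2.

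Of 25 genes for adaptors and signal relay, 13 rose and 5 fell with siMEX3A_1, and 15 rose and 7 fell with siMEX3A_2. STAT3, a transcription factor gene, rose by 1.15 and 0.82, SHC1, for an adaptor of activated receptors, by 0.89 and 0.76, and PIK3R1, for a regulatory subunit of PI3 kinase, by 1.14 and 0.95. HRAS, for a GTPase of the signal relay, was named after its values were seen. It rose by 1.15 with siMEX3A_1 (SE 0.11, adjusted p = 1.97e-05) and fell by 0.76 with siMEX3A_2 (SE 0.13, adjusted p = 9.99e-04). GAB2, for a docking protein, rose by 0.98 with siMEX3A_2 and was at -0.06 with siMEX3A_1. CRKL, for an adaptor, fell by 0.70 with siMEX3A_1 (adjusted p = 1.09e-05) and was at -0.07 with siMEX3A_2. NRAS and MAP2K1, named after their values were seen, were called lower with each siRNA. NRAS fell by 0.66 and 0.45, and MAP2K1 by 0.40 and 0.24. Of 13 genes for endocytosis and sorting of receptors, 9 rose with each siRNA, 0 fell with siMEX3A_1 and 1, AP2M1, fell with siMEX3A_2 by 0.14. EPN1, which encodes the endocytic adaptor epsin, rose by 1.26 and 0.47.

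**Figure D5:**
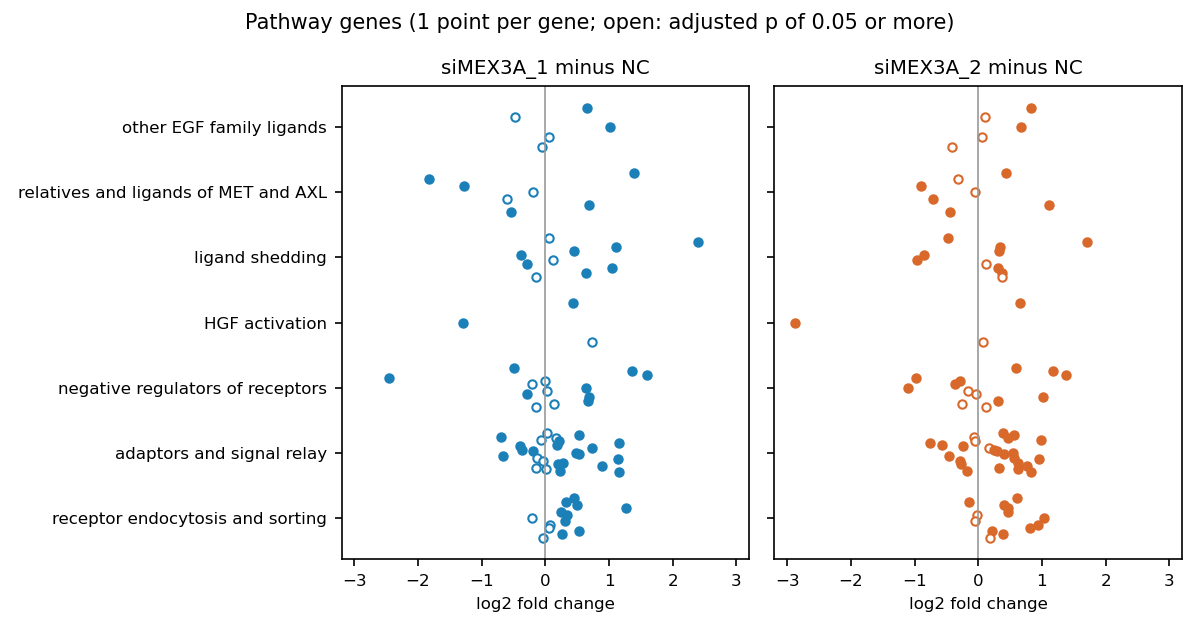
Log2 fold change against NC (horizontal axis) of the 76 tested genes of the 7 lists, with siMEX3A_1 on the left and siMEX3A_2 on the right. Each point is a gene, and open points did not pass at an adjusted p under 0.05. SPINT1 is the lowest point with siMEX3A_2, at -2.87, and ADAM12 the highest in both panels, at 2.39 and 1.71.

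The genes whose log2 levels over the 6 libraries were most like those of each member were taken among 11150 other genes with a mean of at least 100 normalized counts. EREG was matched most closely by DFNA5 and by ERRFI1, each with a Pearson r of 0.999. AREG was nearest to SLC9A8 and GTF3A, TGFA to FAM168A and PRICKLE1, and HBEGF to FTO and CTSL, with r from 0.997 to 1.000. EGFR was nearest to LMBR1 and CLUHP3, ERBB2 to PPP1CC and PSME1, ERBB3 to PTK2B and COLGALT1, and AXL to KDELC1 and JADE1, with r from 0.996 to 1.000. With so few libraries such coefficients are common: 774 genes had an r over 0.95 with AREG, 760 with AXL and 439 with EGFR. MET, which passed in no comparison, had 18, with ATP13A3 and FIGN the nearest.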

How the data were processed

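Single-end mRNA libraries were sequenced by BGI, per the labels. The authors deposited expected counts without normalization, as the values show, and the submitters' processing notes name STAR, RSEM, GRCh37 and hg19, with no versions or roles. The authors' own comparisons in the deposited tables give log2 fold changes with standard errors and p-values with adjusted p-values per gene, per the file headers, whose names are those of DESeq2 output.

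Here, expected counts were rounded and fitted over all 6 libraries with edgeR 4.0.16 (R 4.3.3): TMM scaling, default filter, quasi-likelihood test, Benjamini-Hochberg adjustment over 18583 genes. Standard errors are the absolute log2 fold change over the square root of F. DESeq2 1.42.0 was an alternative, as were other scalings, filters, a replicate block and leaving out each library. The test was first run on counts simulated from its own fitted spread, with few genes changed and no trend with gene length. That setting differs from these data, so the run does not show how the test behaves on them. Replicates differed by more than sampling noise (chi-square over degrees of freedom 2.39 to 5.62), and the biological coefficient of variation was 6.26%.

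The 9 genes and the gene lists were chosen with earlier results of these data known. Named genes are the 9 genes, up to 4 genes per list and comparison by lowest p (with their values in the other comparison), untested list genes, and the 2 genes nearest each member by r. Further list genes were named after their values were seen, as marked where they appear. Some list genes are not reported here. Exon lengths, from GENCODE v29 on GRCh38, matched 93.1% of genes tested. Rows sharing a name (0.301% to 0.339% of counts) stayed in the fit without a symbol.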

Additional observations from a re-analysis of the deposited data

Results flagged for a closer look

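AXL was called higher with siMEX3A_1 (log2 fold change 0.51) and lower with siMEX3A_2 (-1.38), and the test of the difference itself gave 1.89 (SE 0.05, adjusted p = 1.63e-08), with both siMEX3A_1 libraries above and both siMEX3A_2 libraries below the NC libraries. PTPN1, a phosphatase gene, had changes of 0.63 and -1.10 and a difference of 1.73 (SE 0.07, adjusted p = 7.29e-08). AP2M1, which encodes a subunit of the clathrin adaptor AP-2, had changes of 0.32 (adjusted p = 4.29e-04) and -0.14 (adjusted p = 0.0447) and a difference of 0.46 (SE 0.05, adjusted p = 4.26e-05). Each was called in opposite directions with the siRNAs. Further list genes of this kind, named after their values were seen, follow.

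HRAS, a GTPase gene of the signal relay, had changes of 1.15 and -0.76 and a difference of 1.91 (SE 0.12, adjusted p = 1.23e-06). The kinase gene SRC had 0.23 and -0.18, with a difference of 0.41 (SE 0.06, adjusted p = 3.21e-04). CBL, which encodes a ubiquitin ligase of EGFR, went the other way, with -0.49 and 0.59 and a difference of -1.09 (SE 0.09, adjusted p = 5.71e-06). So did the kinase gene MAPK3, with -0.20 and 0.29 and a difference of -0.49 (SE 0.06, adjusted p = 1.04e-04).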

How the results depend on the processing

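Each result was recomputed under 14 alternatives, 13 of them planned and the removal of the trend with exon length added after seeing the data. Of 27 member results (9 genes in 3 comparisons), 22 kept their side of the threshold under all of them, and no called change reversed. The 5 others were EGFR, ERBB3 and MET with siMEX3A_1 against NC, and EREG and MET between the siRNAs, whose values are given above. The called share of all genes tested also moved. It was lowest with no filter on low counts, at 24.1% with siMEX3A_1, 22.7% with siMEX3A_2 and 23.2% between the siRNAs. With a mean of at least 50 counts it was highest, at 68.1%, 65.7% and 67.7%. The counts that follow are read against these shares. The number of members called ran from 4 to 6 with siMEX3A_1, was 8 with siMEX3A_2 under each alternative, and ran from 7 to 9 between the siRNAs. The pathway genes called ran from 46 to 53, from 48 to 60 and from 42 to 58. Leaving out each library gave 4 to 6, 8, and 7 to 9 members, and with 1 library left in a group it was assumed to vary like the others.

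Same-numbered libraries shared little deviation from their groups: the correlations over all genes tested were -0.09, 0.02 and -0.004. In NC and siMEX3A_1 the ratio of replicate 1 to replicate 2 still ran with exon length in opposite directions. Its Spearman rho with length was 0.39 in NC and -0.39 in siMEX3A_1, over 10643 protein-coding genes. These values do not tell if such libraries were prepared together. With the replicate block, the change of ERBB3 with siMEX3A_1 was -0.31 (edgeR adjusted p = 0.0528). In that fit 4, 8 and 7 members were called, where 50.2%, 48.1% and 49.0% of all genes tested were called. With library size as the only scaling, the median of all genes moved by less than 0.1 (to -0.07, -0.02 and -0.05). With 2 libraries per group, a change that did not pass is not shown to be absent.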

Other observations

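Of 13 genes for endocytosis and sorting of receptors, 5 were called higher with siMEX3A_1 than with siMEX3A_2 and 5 lower. In this comparison 51.6% of all genes tested were called, and 67.7% of genes with a mean of at least 50 counts, as these 13 have. RAB5A, which encodes a GTPase of early endosomes, had normalized counts of 805 and 753 in NC, of 619 and 722 for siMEX3A_1, and of 1583 and 1618 for siMEX3A_2. It rose by 1.04 with siMEX3A_2 (SE 0.08, edgeR adjusted p = 5.55e-06) and was at -0.22 with siMEX3A_1 (adjusted p = 0.0537), and the difference between the siRNAs was -1.26 (SE 0.08, adjusted p = 1.30e-06). SH3KBP1, which encodes a partner of the CBL ubiquitin ligases in EGFR uptake, rose by 0.94 with siMEX3A_2 and was at 0.07 with siMEX3A_1 (difference -0.87, SE 0.06, adjusted p = 1.97e-06). STAM, which encodes a subunit of the endosomal sorting complex, rose by 0.82 with siMEX3A_2 and was at 0.05 with siMEX3A_1 (difference -0.77, SE 0.09, adjusted p = 6.95e-05). RAB7A, which encodes a GTPase of late endosomes, went the other way: it rose by 0.31 with siMEX3A_1 and was at -0.05 with siMEX3A_2 (difference 0.36, SE 0.04, adjusted p = 1.12e-04). EPN1 and AP2M1, described above, were also higher with siMEX3A_1 than with siMEX3A_2. Their differences were 0.79 (SE 0.08, adjusted p = 2.90e-05) and 0.46 (SE 0.05, adjusted p = 4.26e-05).

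The 6 markers of renal epithelium differed in direction between genes. The normalized count of PAX2 was 2585 ± 126 in NC, 1729 ± 102 for siMEX3A_1 and 652 ± 48.3 for siMEX3A_2 (SD, n = 2 libraries). In the same order CDH16, which encodes kidney-specific cadherin, was at 280.5 ± 2.17, 47.7 ± 1.14 and 99.6 ± 12.1, and EPCAM at 981 ± 2.15, 951 ± 12.7 and 539.9 ± 5.95. KRT8 was at 11367 ± 9.34, 26744 ± 1341 and 13733 ± 254, and KRT18 at 4680 ± 162, 6646 ± 490 and 6471 ± 213. PAX8 was at 15671 ± 626, 12179 ± 253 and 10866 ± 635.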
